A study of Homo sapiens with 4 samples.

Results

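The genes described here are 40 genes of the interferon response and of nucleic acid sensing, chosen by symbol from the 38972 genes of one deposited expression table. They were split by role into 24 interferon-stimulated effectors and 16 genes that act earlier, namely sensors, adaptors, kinases, nucleic acid enzymes and transcription factors of the IRF and STAT families. All 40 had a row in the table, and 27 of them reached a mean of 1 TPM (a level adjusted for gene length and expressed as a share of the library's transcripts) and were tested. RNA came from HEK293T cells, an established human embryonic kidney line, in 2 libraries from cells overexpressing Flag, an epitope tag (oeFlag), and 2 from cells overexpressing RNase H1, an enzyme that cuts the RNA strand of RNA-DNA hybrids (oeRNH1). Both groups are the same line, and the labels used here give no time, dose, vector or promoter. The labels do not tell whether the replicates are independent cultures, and p-values therefore rest on a spread between libraries that may be technical only.

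Cells detect misplaced DNA and double-stranded RNA with sensor proteins such as cGAS, MDA5 and TLR3. Adaptors such as STING and MAVS pass the signal to the kinases TBK1 and IKK-epsilon, which activate IRF factors and so the interferon genes. Secreted interferon then acts through its receptors on a complex that contains STAT2 and IRF9, which binds the interferon-stimulated response element (ISRE) of effector genes. HEK293T cells are known for weak expression of several DNA sensing components.

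The only comparison of the design asks how transcript levels in cells given RNase H1 differ from those in cells given Flag. RNASEH1, the gene for that enzyme, was listed at 32.09 and 32.8 TPM in the oeFlag libraries and at 29.93 and 29.67 TPM in the oeRNH1 libraries (log2 fold change -0.12 ± 0.06, SE, limma adjusted p = 0.26). Its level was not higher in the libraries labelled oeRNH1, so oeFlag and oeRNH1 stand for the labels throughout, and higher or lower always refers to the libraries labelled oeRNH1. The oeFlag libraries had 23556 and 23621 genes above 0 TPM and the oeRNH1 libraries 24585 and 24568. Sequencing depth cannot be read from TPM and is unknown. Among markers of HEK293T cells, VIM lay between 867.46 and 979.02 TPM and IRS4 between 99.86 and 217.96 TPM, and the leukocyte marker PTPRC reached at most 0.02 TPM. VIM was called higher, and the HEK293T markers IRS4 and NEFM lower. Fold changes were computed from log2(TPM + 1), which understates the change of genes of a few TPM or less, and a gene was called at a limma p under 0.05 after Benjamini-Hochberg adjustment over all 15651 tested genes. In bulk RNA, fewer cells expressing a gene and less of its RNA per cell cannot be told apart.

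The ISRE is the sequence by which many of these effectors are addressed, and the stretches before the starts of 6 of the genes are shown here because they carry or lack its core. RefSeq promoter windows on GRCh38.p14, of 250 bases before to 50 after the start, were found by symbol for 29 of the 40 genes. The core searched for was GAAANNGAAA, which reads TTTCNNTTTC on the other strand, and matches that overlap each other were kept. Each stretch below holds the 160 bases before the start, 5′ to 3′ on the strand of the gene, with core matches in capitals. The first 3 genes were called higher and carry the core. IFIT1 and ISG20 carry it and were not called, and TBK1 was called higher and has no match in the stretch.
ISG15 (chr1:1013337-1013496, plus strand): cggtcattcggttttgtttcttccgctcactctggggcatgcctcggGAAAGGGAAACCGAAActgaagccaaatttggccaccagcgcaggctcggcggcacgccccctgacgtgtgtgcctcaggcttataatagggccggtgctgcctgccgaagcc
IFI6 (chr1:27672193-27672352, minus strand): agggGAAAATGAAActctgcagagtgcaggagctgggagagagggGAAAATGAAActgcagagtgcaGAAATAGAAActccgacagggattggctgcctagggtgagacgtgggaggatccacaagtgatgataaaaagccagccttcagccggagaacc
HERC5 (chr4:88456959-88457118, plus strand): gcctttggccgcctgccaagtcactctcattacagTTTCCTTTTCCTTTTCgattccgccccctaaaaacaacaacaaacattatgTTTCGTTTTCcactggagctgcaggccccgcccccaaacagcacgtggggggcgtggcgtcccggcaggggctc
IFIT1 (chr10:89392463-89392622, plus strand): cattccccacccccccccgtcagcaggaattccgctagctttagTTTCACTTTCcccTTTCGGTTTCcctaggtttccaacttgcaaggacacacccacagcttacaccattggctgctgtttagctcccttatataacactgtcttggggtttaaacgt
ISG20 (chr15:88638856-88639015, plus strand): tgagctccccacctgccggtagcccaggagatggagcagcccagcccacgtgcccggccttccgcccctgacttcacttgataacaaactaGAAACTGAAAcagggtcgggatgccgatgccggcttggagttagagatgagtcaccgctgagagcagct
TBK1 (chr12:64451960-64452119, plus strand): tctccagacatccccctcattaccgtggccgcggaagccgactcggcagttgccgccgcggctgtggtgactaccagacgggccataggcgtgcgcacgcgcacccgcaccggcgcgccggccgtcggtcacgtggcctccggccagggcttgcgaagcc

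Among the 29 genes with a window, 18 (62.1%) held the core in at least one listed window, against 4.38% of all 27305 genes with a promoter entry. Such shares describe the choice of genes, made for their part in the interferon response, and not the libraries. By role the core was found in 15 of 18 effectors and in 3 of 11 sensors and signalling genes, namely EIF2AK2, IFIH1 and TLR3. Of the 18 genes that held it, 3 were called higher, 9 were tested and not called, and 6 were below the level for testing. Over all tested genes with a promoter entry, 5.68% of the 405 that held the core were called higher and 6.99% of the 10733 that did not. A second core, TTCNNNGAA, the gamma-interferon activated site (GAS), reads the same on both strands. It was found in 9 of the 29 genes, IRF1 and IRF9 among them, against 9.38% of all genes.

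Among the effectors, ISG15, IFI6, IFIT2 and HERC5 rose, and no effector fell. Among the sensing and signalling genes the kinase TBK1 rose, and no sensor, adaptor, nucleic acid enzyme or IRF/STAT factor was called in either direction. In counts, 4 of 15 tested effectors and 1 of 12 tested genes of the other roles were called higher, against a background of 6.3% of all tested genes. Calls lower were 0 of 27 in limma, against a background of 5.54%, and at an unadjusted p under 0.05 there were 10 of the 27 genes, of which MAVS and IRF3 were lower, beside 4906 (31.3%) of all tested genes. The median log2 fold change was 0.24 over the tested effectors and -0.02 over the tested genes of the other roles, beside 0.00 over all tested genes. IFIT2 and IFIT3 reached the level for testing only through the oeRNH1 libraries, and without them 3 of 13 effectors were called, with a median of 0.22. The genes were not drawn at random, so these counts are a description of the named genes. Every one of these calls was lost when a single library was left out. Limma called 0 members without oeFlag replicate 1, without oeFlag replicate 2, without oeRNH1 replicate 1 and without oeRNH1 replicate 2, with 9, 7, 8 and 6 of the 27 at an unadjusted p under 0.05. Those unadjusted shares over all tested genes were 22.7%, 21.5%, 22.7% and 25.8%. The same was seen over all genes, where 1, 15, 0 and 1 calls were left of 1853.

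**Figure D1:**
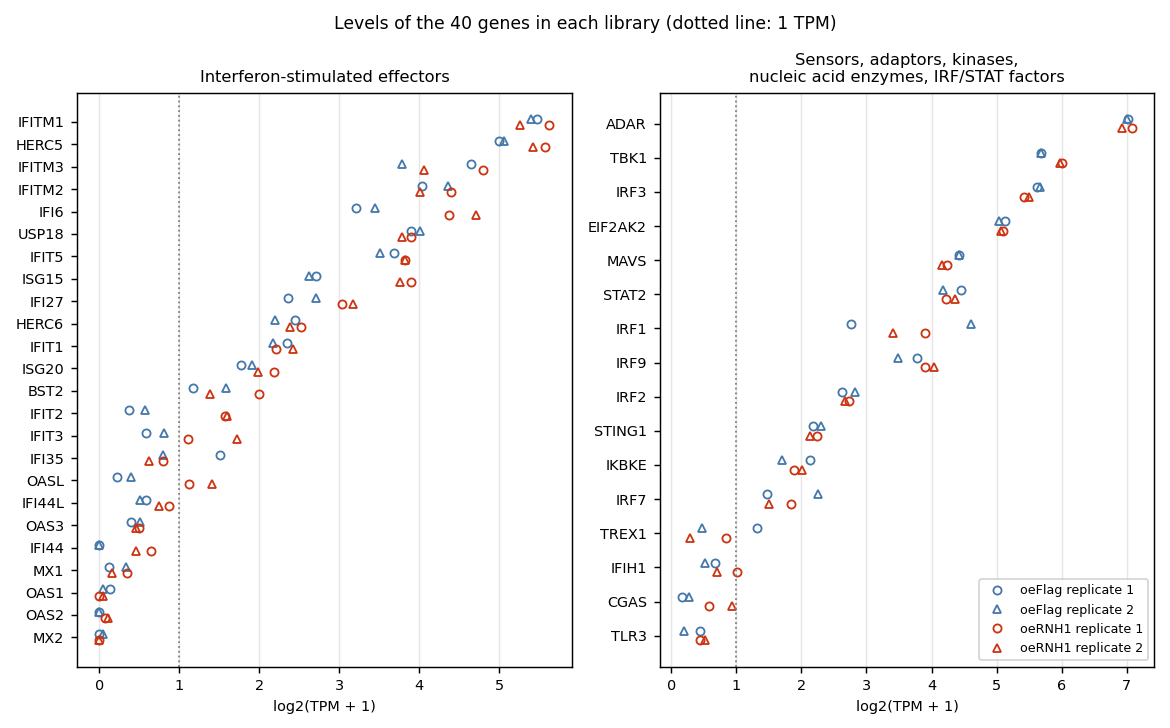
Level of each of the 40 genes as log2(TPM + 1), with 1 point per library, oeFlag in blue and oeRNH1 in red, circles for replicate 1 and triangles for replicate 2. The dotted line marks 1 TPM. ISG15 and IFI6 show separate groups above that line, whereas ADAR, EIF2AK2 and STAT2 show groups that overlap.

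ISG15 encodes a ubiquitin-like protein that is joined to other proteins during the antiviral response. It stood at 5.53 and 5.14 TPM in the oeFlag libraries and at 13.86 and 12.54 TPM in the oeRNH1 libraries. Both oeRNH1 libraries were above both oeFlag libraries by much more than replicates differed. The ratio of the group means was 2.47 (5.34 ± 0.276 and 13.2 ± 0.933 TPM, SD, n = 2), and the log2 fold change was 1.16 ± 0.11 (SE, limma adjusted p = 0.0079). HERC5, the ligase that attaches ISG15, was the most abundant effector to rise, from 30.88 and 32.46 to 46.68 and 41.79 TPM. Its ratio of means was 1.4 (log2 0.47 ± 0.08, SE, limma adjusted p = 0.0226). The neighbouring HERC6 on chromosome 4, a paralog of HERC5, was at 4.43 and 3.59 TPM in oeFlag and 4.76 and 4.24 TPM in oeRNH1, with groups that overlap. USP18, the protease that removes ISG15 and restrains interferon receptor signalling, stood at 13.86 and 15.07 TPM in oeFlag and 13.94 and 12.8 TPM in oeRNH1, again with overlap. Of the other enzymes that join ISG15 to proteins, the activating enzyme UBA7 was at 4.26 and 3.7 TPM in oeFlag and 3.69 and 3.84 TPM in oeRNH1, with overlap. The conjugating enzyme UBE2L6 was at 7.93 and 9.12 TPM in oeFlag and 6.48 and 6.69 TPM in oeRNH1, lower without overlap and not called (limma adjusted p = 0.118). Whether these genes differ from each other in their change was not tested.

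IFI6, an interferon-induced protein of membranes that limits cell death and flavivirus replication, was called higher. Its values were 8.28 and 9.9 TPM in oeFlag and 19.77 and 25.31 TPM in oeRNH1. The groups were well apart, although the oeRNH1 libraries differed from each other more than those of ISG15. The ratio of means was 2.48 (9.09 ± 1.15 and 22.5 ± 3.92 TPM, SD, n = 2), with a log2 fold change of 1.22 ± 0.14 (SE, limma adjusted p = 0.0116). IFI27, of the same small family, stood at 4.11 and 5.56 TPM in oeFlag and 7.21 and 8.03 TPM in oeRNH1. These groups did not overlap, and the log2 fold change of 0.57 ± 0.16 (SE) missed the threshold (limma adjusted p = 0.0675). IFI27 was called with the replicate number as a block (limma adjusted p = 0.0351) and with the filter at a mean of 5 TPM (limma adjusted p = 0.0453). It passed that filter only through the oeRNH1 libraries, since its oeFlag mean was 4.835 TPM. Of 16 alternatives these were the 2 that called it.

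The 4 IFIT genes encode proteins that bind foreign RNA and block its translation, and lie together on chromosome 10. IFIT2 stood at 0.29 and 0.48 TPM in oeFlag and at 1.98 and 2.02 TPM in oeRNH1. It was low in every library, and the oeRNH1 pair was close together. The ratio of means was 5.2, and the log2 fold change on the compressed scale was 1.12 ± 0.21 (SE, limma adjusted p = 0.0302). IFIT2 shares 8.7% of its exon length with AL353751.1 on the same strand, listed at 0.27 TPM at most. It also shares 1.6% with LIPA on the opposite strand, at 48.83 and 48.06 TPM in oeFlag and 47.86 and 43.58 TPM in oeRNH1. The use of strand is not given, and the IFIT2 value is uncertain. IFIT3 was listed at 0.5 and 0.75 TPM in oeFlag and 1.15 and 2.29 TPM in oeRNH1 and was not called (limma adjusted p = 0.14). IFIT5 was more abundant, at 11.89 and 10.43 TPM in oeFlag and 13.14 and 13.21 TPM in oeRNH1, and was not called (adjusted p = 0.187). IFIT1 stood at 4.09 and 3.5 TPM in oeFlag and 3.63 and 4.34 TPM in oeRNH1. The groups of IFIT1 overlapped, while those of the other IFIT genes did not. Over all tested genes 31.3% were higher without overlap. IFIT2 and IFIT3 reached the level for testing only through the oeRNH1 libraries.

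IFITM1, IFITM2 and IFITM3 are membrane proteins that hinder virus entry, and were among the most abundant effectors. IFITM1 stood at 43.35 and 41.3 TPM in oeFlag and 48.49 and 37.45 TPM in oeRNH1 (log2 0.01, 95% interval -0.28 to 0.30). IFITM2 lay at 15.35 and 19.5 TPM in oeFlag and 20.11 and 15.12 TPM in oeRNH1 (log2 0.01, interval -0.39 to 0.41). IFITM3 was listed at 24.09 and 12.73 TPM in oeFlag and 26.74 and 15.68 TPM in oeRNH1 (log2 0.21, interval -0.60 to 1.03). All 3 pairs of groups overlapped, and IFITM3 was high in replicate 1 of both groups. These genes are related copies, and 32.5% of the exon length of IFITM1 is shared with annotated transcripts of IFITM2. The authors' counting may therefore have split their reads, and their values are uncertain. ISG20, a nuclease for single-stranded RNA, was at 2.42 and 2.76 TPM in oeFlag and 3.53 and 2.94 TPM in oeRNH1, without overlap and not called (limma adjusted p = 0.373). BST2, the tetherin that holds virus particles on the cell, was at 1.25 and 1.99 TPM in oeFlag and 2.98 and 1.61 TPM in oeRNH1, with overlap.

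Several other effectors were at or near 0. MX1 reached at most 0.27 TPM, MX2 0.03 TPM, OAS1 0.1 TPM, OAS2 0.08 TPM and OAS3 0.42 TPM in any library. MX1 and MX2 are GTPases that trap viral components, and the OAS enzymes make the messenger that activates RNase L. OASL, a relative of the OAS enzymes, was listed at 0.16 and 0.31 TPM in oeFlag and at 1.18 and 1.66 TPM in oeRNH1. IFI44 was listed at 0 in both oeFlag libraries and at 0.56 and 0.37 TPM in oeRNH1, and its neighbour IFI44L at 0.5 and 0.42 against 0.82 and 0.68 TPM. IFI35, which binds other interferon-induced proteins, was at 1.85 and 0.74 TPM in oeFlag and at 0.74 and 0.53 TPM in oeRNH1. None of these 9 effectors reached the level for testing. In 4 of them (OASL, IFI44, IFI44L and OAS2) both oeRNH1 libraries were above both oeFlag libraries, and in 0 of them below. Of all genes above 0 and under a mean of 1 TPM, 16.6% were above and 11.4% below. From a mean of 0.1 to under 1 TPM, where OASL, IFI44 and IFI44L lie, 20.5% were above and 15.8% below. The oeRNH1 libraries also listed more genes above 0 than the oeFlag libraries, and the part of that in these low values was not tested.

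**Figure D2:**
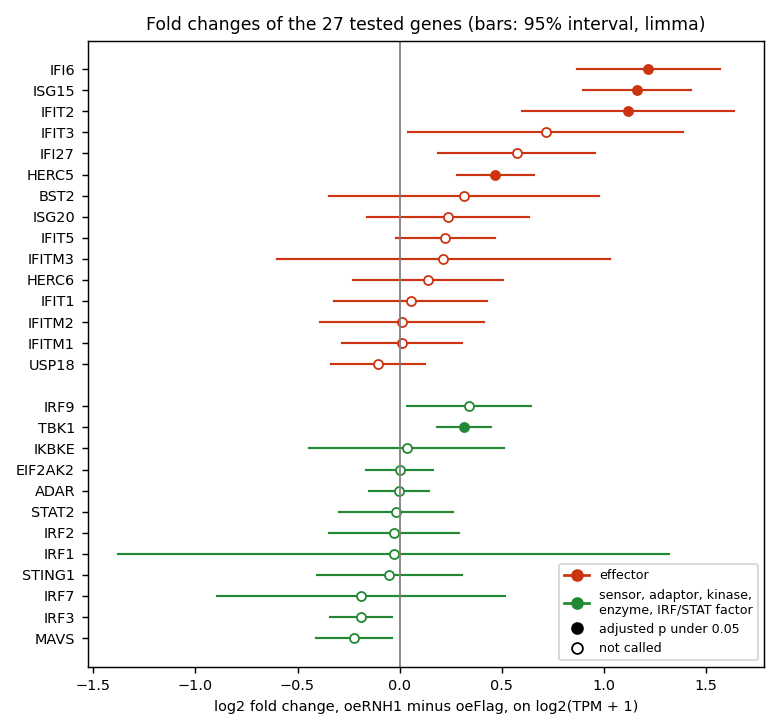
Log2 fold change on log2(TPM + 1), oeRNH1 minus oeFlag, for the 27 tested genes, with 95% intervals from limma and filled points for adjusted p under 0.05. Effectors (red) reach 1.22, while the genes of the other roles (green) lie between -0.22 and 0.34 and IRF1 has the widest interval.

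Summed over the 24 effectors, the level was 173.33 and 167.37 TPM in the oeFlag libraries and 232 and 203.2 TPM in the oeRNH1 libraries. The group means of that sum differed by 47.25 TPM. Of that difference 35.49 TPM (75.1%) came from the 4 called effectors and 11.75 TPM from the other effectors. The 4 were singled out by their change in these same libraries, so a large share follows from that choice. IFIT2 is among them and was tested only through the oeRNH1 libraries. Over the 16 genes of the other roles the sums were 336.99 and 348.35 TPM in oeFlag and 354.19 and 337.31 TPM in oeRNH1. Those sums overlapped.

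Of the 4 sensors 1 was abundant enough to be tested, and it was not called. EIF2AK2, the kinase PKR that halts translation on double-stranded RNA, stood at 33.9 and 31.93 TPM in oeFlag and 33.42 and 32.39 TPM in oeRNH1 (log2 0.00, 95% interval -0.16 to 0.16). That interval is narrow beside the changes of ISG15 and IFI6. CGAS, which makes cyclic GMP-AMP on cytosolic DNA, was listed at 0.12 and 0.21 TPM in oeFlag and 0.5 and 0.9 TPM in oeRNH1, and IFIH1, the RNA sensor MDA5, at 0.59 and 0.43 against 1.02 and 0.63 TPM. Both genes were higher without overlap, as were 20.5% of all genes with a mean from 0.1 to under 1 TPM. Their levels were below those tested. TLR3, the endosomal receptor for double-stranded RNA, was at 0.35 and 0.14 TPM in oeFlag and 0.35 and 0.43 TPM in oeRNH1, with overlap.

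The adaptors were not called. MAVS, the adaptor of the RNA helicase sensors on mitochondria, stood at 20.5 and 20.41 TPM in oeFlag and 17.85 and 16.91 TPM in oeRNH1, lower without overlap (limma adjusted p = 0.11). STING1, the adaptor of cGAS, was at 3.5 and 3.91 TPM in oeFlag and 3.73 and 3.36 TPM in oeRNH1, with overlap. TBK1, the kinase downstream of both adaptors, was listed at 50.35 TPM in both oeFlag libraries and at 63.64 and 62.08 TPM in oeRNH1. Its change was small but well above the spread between replicates, with a ratio of means of 1.25 and a log2 fold change of 0.31 ± 0.05 (SE, limma adjusted p = 0.0246). After correction for GC content, exon length and gene span the TBK1 value was 0.21 (adjusted p = 0.0544), no longer a call. An antisense gene that shares 14.7% of the TBK1 exon length was listed at 0.25 TPM at most. IKBKE, the related kinase IKK-epsilon, was at 3.37 and 2.25 TPM in oeFlag and 2.71 and 3.02 TPM in oeRNH1, with groups that overlap.

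ADAR, the enzyme that edits adenosine to inosine in double-stranded RNA and so hides it from sensors, was the most abundant of the 40 genes. It stood at 128.47 and 127.66 TPM in oeFlag and at 134.49 and 121.46 TPM in oeRNH1 (log2 0.00, 95% interval -0.15 to 0.14). TREX1, the exonuclease that removes cytosolic DNA, was listed at 1.48 and 0.38 TPM in oeFlag and 0.79 and 0.22 TPM in oeRNH1, low and overlapping. Its whole exon length (100%) lies within annotated transcripts of ATRIP, itself at 19.68 and 18.94 TPM in oeFlag and 23.39 and 24.84 TPM in oeRNH1, so the TREX1 value is uncertain.

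Of the transcription factors, none was called. STAT2, which drives effector genes together with IRF9, stood at 20.86 and 17.08 TPM in oeFlag and 17.74 and 19.57 TPM in oeRNH1, with overlap. IRF9 was at 12.68 and 10.23 TPM in oeFlag and 13.96 and 15.45 TPM in oeRNH1, higher without overlap and not called (limma adjusted p = 0.124). IRF9 shares 48.4% of its exon length with another annotated gene on the same strand (AL136295.5), and its value is uncertain. IRF3, the factor that TBK1 activates, was at 48.07 and 50.13 TPM in oeFlag and 41.86 and 44.01 TPM in oeRNH1. The difference did not pass (log2 -0.19, 95% interval -0.34 to -0.04, limma adjusted p = 0.0988), and IRF3 shares 19.3% of its exon length with BCL2L12 on the opposite strand, in data whose use of strand is not given. IRF7, the factor that amplifies interferon production, was at 1.77 and 3.76 TPM in oeFlag and 2.57 and 1.84 TPM in oeRNH1. IRF2, which competes with IRF1 for the same sites, was at 5.17 and 6.09 TPM in oeFlag and 5.61 and 5.37 TPM in oeRNH1. Groups overlapped for IRF7 and IRF2.

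IRF1, an early-induced activator of interferon and effector genes, had the widest spread between replicates of all 27 tested genes. It was listed at 5.81 and 23.39 TPM in the oeFlag libraries and at 13.95 and 9.67 TPM in the oeRNH1 libraries. The oeRNH1 values lay between those of oeFlag. The oeFlag libraries differed 3.58-fold on the TPM + 1 scale, and 0.281% of all tested genes differed at least as widely in that group. The log2 fold change of -0.03 thus carries a 95% interval from -1.38 to 1.32. It was 0.89 without oeFlag replicate 2 and -0.95 without oeFlag replicate 1, neither of them called, so that no direction can be given for IRF1. IRF1 shares 22% of its exon length with IRF1-AS1 on the opposite strand, which stood at 2.33 and 1.77 TPM in oeFlag and 1.38 and 2.07 TPM in oeRNH1.

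**Figure D3:**
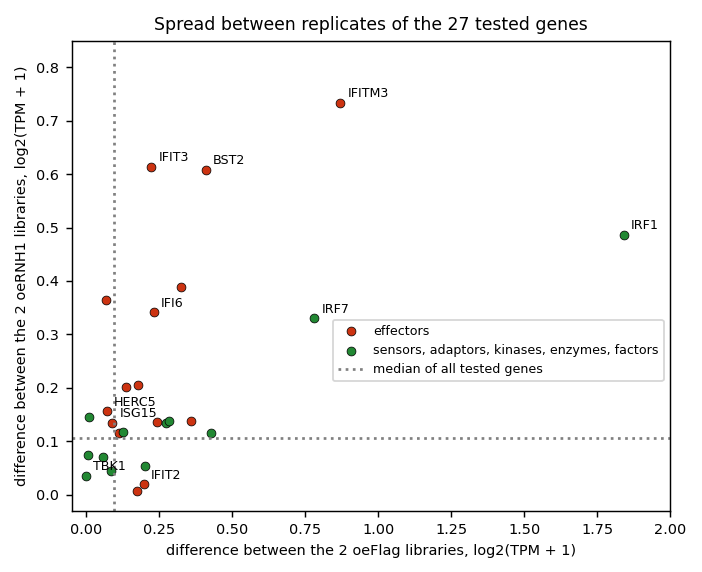
Difference between the 2 replicates on log2(TPM + 1) in oeFlag (x axis) and in oeRNH1 (y axis) for the 27 tested genes, with dotted lines at the medians of all tested genes, 0.10 and 0.11. IRF1 stands apart in oeFlag at 1.84, IFITM3 is wide in both groups at 0.87 and 0.73, and TBK1 and ISG15 lie near or below the medians.

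Groups did not overlap in 10 of the 27 tested genes with oeRNH1 higher and in 2 with oeRNH1 lower, against backgrounds of 31.3% and 29.4% of all tested genes. By role, the effectors had 8 of 15 higher and 0 lower, and the other genes 2 higher and 2 lower of 12. The 8 include IFIT2 and IFIT3, which reached the level for testing only through the oeRNH1 libraries. The share of genes called higher differed with level. At a mean from 1 to under 5 TPM 1 of 9 members, IFIT2, was called higher, beside 2.0% of all tested genes of that level. Among members of that level with both group means at least 1 TPM it was 0 of 7. At a mean from 5 to under 20 TPM 2 of 12 members were called higher, beside 5.22% of all tested genes of that level. At 20 TPM or more it was 2 of 6 members, beside 9.71%.

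**Figure D4:**
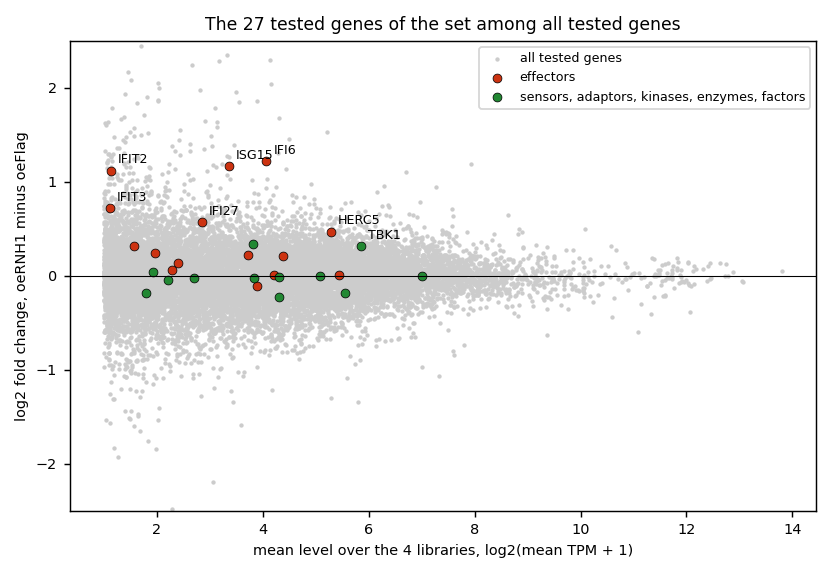
Log2 fold change on log2(TPM + 1) against mean level for all tested genes (grey, 7 lie beyond the axis limits of 2.5), with the effectors in red and the other members in green. ISG15, IFI6 and IFIT2 lie at the upper edge of the grey points of their level, and most other members lie inside them.

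Upstream of the effectors, interferon transcripts themselves were hardly detected. Of 21 interferon genes 14 were listed at 0 in all libraries, and the highest value of any was 0.27 TPM, for IFNE in 1 oeRNH1 library. IFNB1, the type I interferon that most cells make first, was listed at 0 in 3 libraries and at 0.13 TPM in oeRNH1 replicate 2. Of 9 receptor chains and Janus kinases, all tested, limma called 1 higher and 0 lower, with 4 higher and 1 lower at an unadjusted p under 0.05. Over all tested genes 6.3% were called higher, and 16.2% were higher and 15.1% lower at that unadjusted p. The one that rose was IFNAR1, a chain of the type I interferon receptor, from 29.95 and 32.53 to 43.68 and 38.41 TPM (log2 0.38 ± 0.09, SE, limma adjusted p = 0.0428).

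Of 63 further interferon-stimulated genes 38 were tested, with 1 called higher, 2 called lower, 35 not called and a median log2 fold change of 0.00, against backgrounds of 6.3% called higher and 5.54% called lower. TRIM5, a restriction factor of retroviruses, rose from 11.21 and 12 to 15.64 and 17.17 TPM (log2 0.46 ± 0.09, SE, limma adjusted p = 0.0346). IFI30, a lysosomal thiol reductase, fell from 37.9 and 43.07 to 27.32 and 32.04 TPM (log2 -0.44 ± 0.10), and TAP2, a peptide transporter of antigen presentation, from 17.14 and 16.39 to 11.99 and 12.77 TPM (log2 -0.41 ± 0.09). Other sensors and signalling proteins had 2 of 13 tested genes higher, the ubiquitin ligase TRAF6 (log2 0.41 ± 0.09) and AZI2, a scaffold of TBK1 (log2 0.26 ± 0.05), and 0 lower in limma, with a median of -0.21. At an unadjusted p under 0.05 they had 3 higher and 3 lower, beside 16.2% and 15.1% of all tested genes. Their values were 10.82 and 10.66 against 15.21 and 14.04 TPM for TRAF6, and 71.37 and 69.11 against 83.21 and 84.86 TPM for AZI2. Among 12 tested genes of nucleic acid removal RNASEH2C, a subunit of RNase H2, rose by 0.40 ± 0.07 and RNASET2, a lysosomal ribonuclease, had a log2 fold change of -0.42 ± 0.07. Of 11 tested negative regulators of the pathway limma called 0 in either direction (1 higher and 1 lower at an unadjusted p under 0.05), and SOCS3, a feedback inhibitor of Janus kinases, stood at 1.45 and 1.8 TPM in oeFlag and 2.25 and 2.64 TPM in oeRNH1.

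Of 8 markers of carcinoma epithelium 4 were tested and 2, the keratins KRT8 and KRT18, were called higher, against 6.3% of all tested genes. At 20 TPM or more, the level of both keratins, that share was 9.71%. In the oeFlag libraries KRT8 was already at 73.19 and 72.59 TPM and KRT18 at 83.49 and 82.71 TPM. CDH1, the adhesion protein E-cadherin, was at 2.23 and 2.11 TPM in oeFlag and 1.13 and 1.23 TPM in oeRNH1, lower without overlap and not called (log2 -0.54 ± 0.18, SE, limma adjusted p = 0.104). EPCAM, an epithelial adhesion molecule, was at 1.51 and 2.32 TPM in oeFlag and 4.33 and 2.18 TPM in oeRNH1, with overlap. The list summed to 160.61 and 159.81 TPM in oeFlag and 193.34 and 190.05 TPM in oeRNH1, while KRT7 was listed at 0 throughout and KRT5 at 0.04 TPM at most. The 3 endothelial markers, none of them at the level for testing, summed to 0.32 and 0.19 against 0.15 and 0.64 TPM. The part of these markers in the rise of the effectors was not tested.

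With each library left out in turn, the 5 called genes kept a positive fold change in all 4 fits. In each of the 5 both oeRNH1 libraries were above both oeFlag libraries, so that sign was fixed in advance. The log2 fold change ranged from 1.05 to 1.39 for IFI6, 1.10 to 1.23 for ISG15 and 1.02 to 1.22 for IFIT2. It ranged from 0.39 to 0.55 for HERC5 and 0.30 to 0.33 for TBK1. Adjusted p in these fits lay between 0.0852 and 0.141 (limma), where a single library in an arm is assumed to vary like the other arm. Of the 27 tested members, 12 had fold changes of both signs over the 4 fits, and none of those 12 was called with all libraries. They were IFIT1, IFITM1, IFITM2, IFITM3, EIF2AK2, STING1, IKBKE, ADAR, STAT2, IRF1, IRF2 and IRF7.

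**Figure D5:**
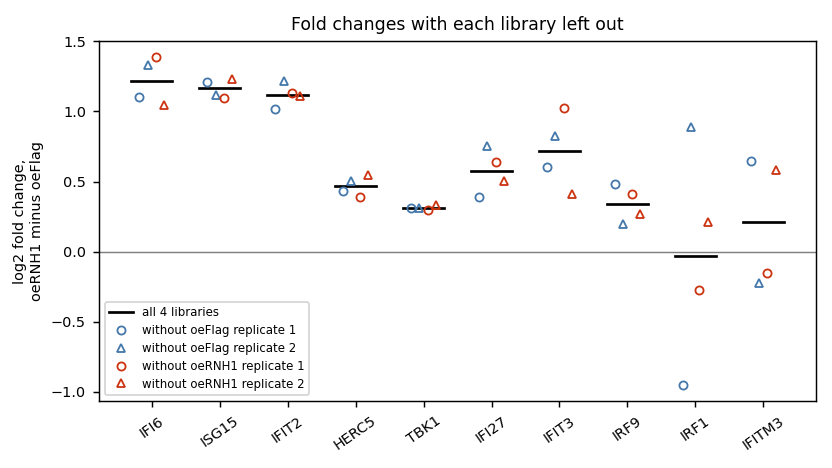
Log2 fold change on log2(TPM + 1) with all 4 libraries (black lines) and with each library left out (points, coloured by the group of that library), for the 5 called genes and 5 others chosen after their values were seen. IFI6, ISG15, IFIT2, HERC5 and TBK1 stay above 0, which is fixed in advance where groups do not overlap, and IRF1 ranges from -0.95 to 0.89.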

How the data were processed

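RNA of 4 HEK293T libraries was sequenced. The labels' protocols name TRIzol extraction and the VAHTS mRNA-seq V3 library kit. The authors deposited a single table of TPM, 1 column for each library. STAR and hg38 are named, per the submitters' processing notes, and what quantified the reads, on which annotation, and whether strand was used is not given in the sources used here. Columns summed to between 998901.13 and 998954.62 TPM.

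Genes averaging 1 TPM or more over the libraries were compared as log2(TPM + 1) with limma 3.58.1 in R 4.3.3 (moderated variances with an intensity trend, two-sided), over the whole table. The procedure was tested on simulated data. Members, roles, lists and tests were chosen with earlier results of these data known. Genes given full statistics were those called and, among uncalled members, the 3 of highest level among the effectors and among the other genes. Of each further list, up to 4 called genes were named. IFI27, IRF1, MAVS, IRF3 and other uncalled members given a fold change or adjusted p outside that rule, and all other names, were chosen after their values were seen. Gene models came from GENCODE release 29 on GRCh38, and promoters from RefSeq. Replicate numbers did not pair the libraries by any label. Alternatives were other pseudocounts, filters, scalings, variance models, a replicate block, GC and length corrections, and leaving out each library. One gene of the nucleic acid removal list was not used here, and some cell type markers are not reported here. Figures were drawn with matplotlib 3.10.9.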

Additional observations from a re-analysis of the deposited data

How the results depend on the processing

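Of 15651 tested genes 1853 were called, among them 5 members, 4 effectors and 1 gene of the other roles. Counts of called genes, members and effectors stayed within 1.5 times of these values under pseudocounts of 0.1 and 5, quantile normalization, robust variances, scaling by median of ratios, a level filter at 5 TPM, the replicate block and both composition corrections. At the 5 TPM filter the count of members stayed while the genes changed. IFIT2 was too low to be tested there, and IFI27 was called, passing that filter only through the oeRNH1 libraries. With no filter limma called 414 genes and 0 members (5549 genes and 10 members at an unadjusted p under 0.05). When genes at 0 in every library were also left out, a setting chosen after seeing the data, it called 0 genes and 0 members (5655 and 11 unadjusted). Without an intensity trend it called 1 gene and 0 members (4337 and 8 unadjusted). Effectors called higher were 0 in these 3 settings, and so were genes of the other roles. After GC, length and span correction 0 genes of the other roles were called, since TBK1 missed the threshold (adjusted p = 0.0544). The causes were not tested. Leaving out each library in turn gave 0 to 15 called genes, and 0 members, 0 effectors and 0 genes of the other roles in each of the 4 fits.

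With the replicate block 2442 genes and 6 members were called, IFI27 being added (adjusted p = 0.0351). The deviations of the replicate 1 libraries of both groups correlated at 0.03 over the tested genes, and no label ties same-numbered libraries, so they share only a number. No member that was called changed sign in any alternative. For the fits that leave out a library this was fixed in advance, as the groups of these members did not overlap. Depth is unknown for TPM, so the counting error of members under 1 TPM cannot be given.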
